A study of Mus musculus with 79 samples.

Results

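Of the 24483 promoters of autosomal genes in the hypothalamus expression table, 714 (2.92%) carried H3K27me3 without H3K4me3 in +/+ mice and are called Polycomb-only here. A promoter was taken from 1500 bp before to 500 bp after the annotated start, and its level is the mean of the 2 ChIP-seq tiles whose centres lie inside. Tiles were 2000 bp long and started every 1000 bp, and their values are in RPM, which corrects the reads of a tile for library depth. Members had a mean H3K27me3 of 3 RPM or more and a mean H3K4me3 under 3 RPM over the 3 +/+ libraries of each mark. Another 651 promoters passed both limits and are called bivalent, 12830 carried H3K4me3 alone and 10288 neither mark. The +/+ levels of H3K27me3 and H3K4me3 therefore chose the members, and every value of these 2 marks below is a description. RNA-seq, H3K36me3 and input libraries had no part in the choice.

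All libraries were made from the hypothalamus of mice aged 14 weeks, from litters whose mothers carried the Zp3-Cre transgene. The study's legends give male mice for ChIP-seq and differ for RNA-seq, where both female and male are named. RNA-seq and ChIP-seq may therefore come from mice of different sex. The +/+ mice had 2 wild-type Dnmt3a alleles. The Δ/D329A mice had a maternal allele without exon 18 (Δ), deleted in the oocyte by Cre under the oocyte-specific Zp3 promoter, and a paternal allele with an aspartic acid to alanine change in exon 8 (D329A), which alters the PWWP domain of DNMT3A and was the remaining source of functional enzyme in every cell. RNA-seq was made from 5 +/+ and 4 Δ/D329A mice, and H3K27me3, H3K4me3, H3K36me3 and input ChIP-seq each from 3 mice of either genotype. The question was how expression and chromatin at promoters silenced by Polycomb differ in mice whose only functional DNMT3A has a mutated PWWP domain.

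Polycomb repressive complex 2 writes H3K27me3, and Polycomb repressive complex 1 binds it and compacts the chromatin. Together they hold genes for other lineages and body regions silent in differentiated tissues, including developmental transcription factors in the adult brain. H3K4me3 marks the start of active or poised CpG-rich promoters, and where both marks overlap the chromatin is called bivalent. H3K36me3 is laid down over the bodies of transcribed genes and is bound by the PWWP domain of DNMT3A, an enzyme that methylates CpG dinucleotides.

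The promoters below show the range of CpG content among members. Expression of Pou4f1 was called higher in Δ/D329A, Tal1 was higher and Crabp1 lower without overlap between the genotypes, Sst and Pomc were among the most strongly expressed members, and Fpr1 stands for the CpG-poor members. Each runs 5′ to 3′ from 250 bases before to 50 bases after the RefSeq start (build GRCm38), with every CpG in capitals, in the order chr14:104467950-104468249 on the minus strand for Pou4f1, chr4:115056176-115056475 on the plus strand for Tal1, chr9:54764498-54764797 on the plus strand for Crabp1, chr16:23890795-23891094 on the minus strand for Sst, chr12:3954695-3954994 on the plus strand for Pomc and chr17:17883890-17884189 on the minus strand for Fpr1.
Pou4f1: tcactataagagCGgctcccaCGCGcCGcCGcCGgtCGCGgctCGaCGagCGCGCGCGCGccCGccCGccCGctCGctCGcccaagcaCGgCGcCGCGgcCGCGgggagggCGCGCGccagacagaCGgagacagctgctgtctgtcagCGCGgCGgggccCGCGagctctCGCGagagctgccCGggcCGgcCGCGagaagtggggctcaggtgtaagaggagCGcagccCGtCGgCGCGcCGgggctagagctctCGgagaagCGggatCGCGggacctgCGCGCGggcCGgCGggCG
Tal1: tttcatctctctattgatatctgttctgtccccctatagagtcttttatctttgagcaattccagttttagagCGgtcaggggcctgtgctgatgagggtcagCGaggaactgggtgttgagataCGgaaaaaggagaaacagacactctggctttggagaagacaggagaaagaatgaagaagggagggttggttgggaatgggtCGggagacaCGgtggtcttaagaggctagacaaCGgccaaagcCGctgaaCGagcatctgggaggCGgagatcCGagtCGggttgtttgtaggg
Crabp1: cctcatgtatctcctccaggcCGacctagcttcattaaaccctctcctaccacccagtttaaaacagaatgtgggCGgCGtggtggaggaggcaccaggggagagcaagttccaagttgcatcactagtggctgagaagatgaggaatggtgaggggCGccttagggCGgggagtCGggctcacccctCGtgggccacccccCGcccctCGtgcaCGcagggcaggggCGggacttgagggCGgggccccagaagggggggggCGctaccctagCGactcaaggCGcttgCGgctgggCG
Sst: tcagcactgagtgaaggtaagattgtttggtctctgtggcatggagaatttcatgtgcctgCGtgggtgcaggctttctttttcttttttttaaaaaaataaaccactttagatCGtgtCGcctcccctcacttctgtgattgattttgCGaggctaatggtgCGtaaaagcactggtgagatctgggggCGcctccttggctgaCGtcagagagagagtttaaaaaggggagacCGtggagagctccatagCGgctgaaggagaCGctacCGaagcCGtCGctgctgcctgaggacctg
Pomc: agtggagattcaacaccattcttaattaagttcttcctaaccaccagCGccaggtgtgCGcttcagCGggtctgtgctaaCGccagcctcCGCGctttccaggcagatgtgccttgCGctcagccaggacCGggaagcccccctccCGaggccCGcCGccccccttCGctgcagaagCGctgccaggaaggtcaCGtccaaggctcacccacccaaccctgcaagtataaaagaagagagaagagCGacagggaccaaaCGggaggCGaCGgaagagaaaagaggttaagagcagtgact
Fpr1: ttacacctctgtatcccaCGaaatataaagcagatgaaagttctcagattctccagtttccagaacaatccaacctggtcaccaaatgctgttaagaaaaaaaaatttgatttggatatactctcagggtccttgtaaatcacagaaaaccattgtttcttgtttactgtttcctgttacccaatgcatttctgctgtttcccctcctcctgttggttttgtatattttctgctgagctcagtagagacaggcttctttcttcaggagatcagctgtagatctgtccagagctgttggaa

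The Pou4f1 stretch holds 57 CpG and is 78.3% G or C, Pomc holds 18, Crabp1 17, Sst 13, Tal1 11 and Fpr1 1. Over the 2000 bp windows, the ratio of observed to expected CpG had a median of 0.422 in members (quartiles 0.303 and 0.545), against 0.555 in bivalent, 0.586 in H3K4me3-only and 0.185 in neither promoters. Among the members, 129 had a ratio of 0.6 or more and 174 a ratio under 0.3. The median +/+ H3K27me3 was 5.49 RPM in the former and 3.71 RPM in the latter, with 5.01 RPM in the 411 between them. The median of members thus lay between those of promoters with H3K4me3 and of promoters with neither mark. Of the 428 members found in the RefSeq promoter table, 10.7% held TATAAA on either strand within these 300 bases and 50.7% held GGGCGG, compared with 13.0% and 47.4% of all 15350 promoters found.

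**Figure D1:**
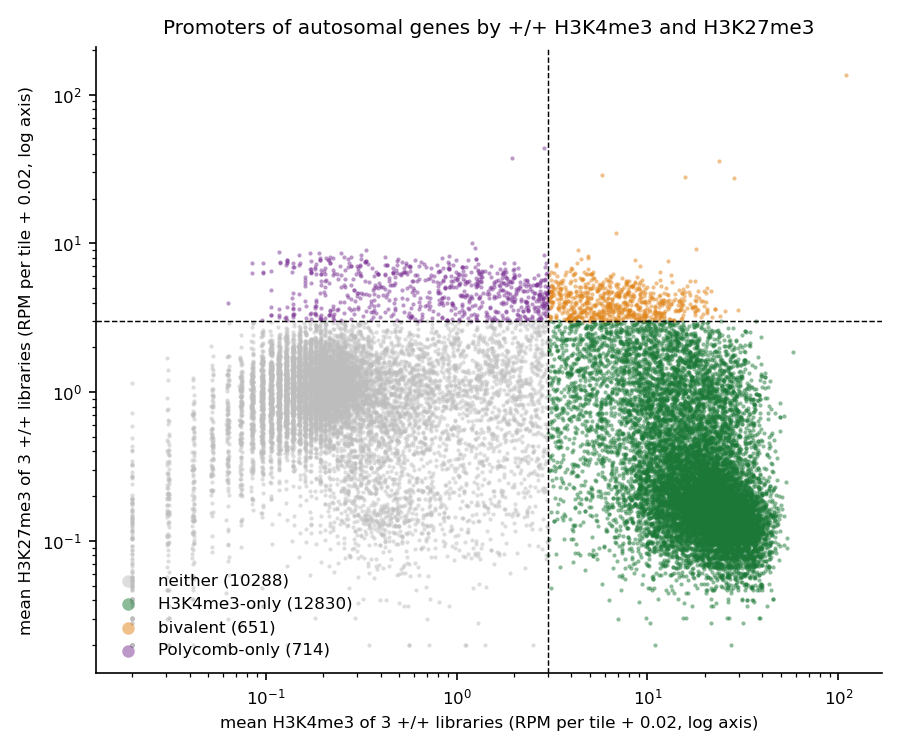
Mean H3K27me3 against mean H3K4me3 of the 3 +/+ libraries at 24483 autosomal promoters, in RPM per tile plus 0.02 on log axes, with 1 point per promoter coloured by class and the limits of 3 RPM as dashed lines. The 714 Polycomb-only promoters lie above the horizontal and left of the vertical line, and the pair of Polycomb-only points far above the rest is Srcrb4d and Zp3.

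Developmental regulators were more frequent among members than in the other classes. The 10 lists of transcription factors searched held 161 of the 714 members (22.5%), compared with 16.4% of bivalent, 0.6002% of H3K4me3-only and 0.399% of neither promoters. Of the 39 autosomal Hox genes, which set positional identity along the body axis, 36 were members, as were 8 of 9 Pax genes, all 5 Gata genes, all 5 Tfap2 genes and 10 of 16 T-box genes. Other homeobox genes were split evenly, with 52 of 130 Polycomb-only and 52 bivalent. Sox genes, many of which are used in the adult brain, had 1 member (Sox14) of 18 against 8 bivalent. Basic helix-loop-helix genes had 17 members of 54 and developmental zinc finger genes 20 of 70. Of 1413 olfactory and vomeronasal receptor genes 6 were members (0.425%), and of 59 serpin genes 0, compared with 2.92% of all promoters. Structural families had larger shares, with 3 of 50 keratin genes (6.0%) and 7 of 41 collagen genes (17.1%).

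**Figure D2:**
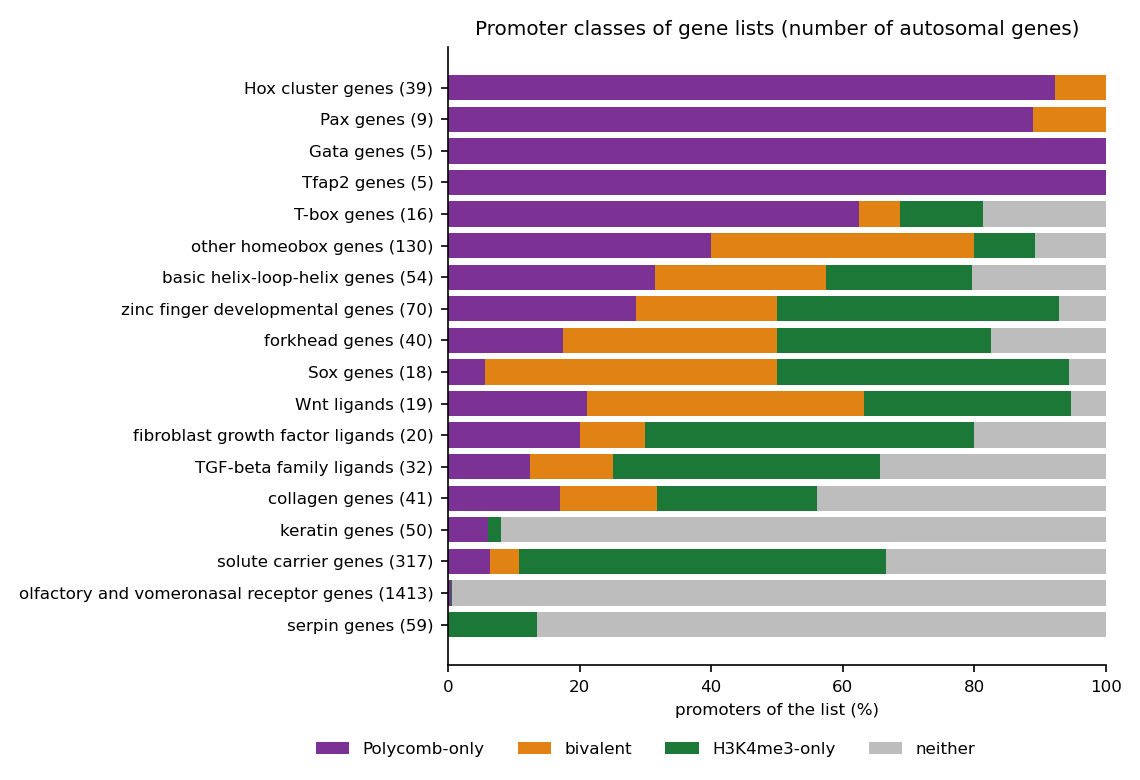
Share of the promoters of each gene list in the 4 classes, in percent, with the number of autosomal genes of the list in parentheses. Hox, Pax, Gata and Tfap2 lists are almost wholly Polycomb-only, Sox and Wnt lists hold more bivalent than Polycomb-only promoters, and olfactory receptors lie almost wholly in the class with neither mark.

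The highest +/+ H3K27me3 at a promoter with ordinary input stood at Hoxa10, with 8.94 ± 0.619 RPM (SD, n = 3), and at Tlx1, a homeobox gene needed for the spleen, with 8.72 ± 0.735 RPM. Tcf21, a mesenchymal factor, had 8.59 RPM. At the lower end, 228 members lay between 3 and 4 RPM and were close to the limit. Just inside it were Igf1 (3.005 RPM), Slc38a4 (3.007 RPM) and Gm16176 (3.013 RPM), and just outside were Lpl (2.992 RPM), Gsdma2 (2.997 RPM) and Gm7030 (2.998 RPM). At the H3K4me3 limit, E330013P04Rik (2.993 RPM) and the pair Ccr9 and Gm17200, which share both tiles (2.997 RPM), were just inside, and Ankrd60 (3.003 RPM), BC016579 (3.009 RPM) and Wnt10a (3.035 RPM) just outside. Both limits were met by 533 members in every +/+ library and by 448 in all 6 libraries of either mark.

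Members lay in 577 separate domains of neighbouring tiles at or above 3 RPM of +/+ H3K27me3, and 211 of them shared a domain with another member, so that members are not separate observations. The domains of members had a median width of 8 kb (quartiles 5 and 20), compared with 6 kb for bivalent promoters, and 73 members lay in domains of 50 kb or more. The 4 Hox clusters were the domains with the most members, 18 in HoxA, 15 in HoxB, 14 in HoxD and 13 in HoxC, counting antisense and predicted genes, over 138, 143, 130 and 185 kb. The nearest tile with H3K4me3 at 3 RPM or more was a median of 13.9 kb away, against 46.6 kb for neither promoters, and 234 members (32.8%) had one within 5 kb.

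Some members had unusual input. It was over 2 RPM in +/+ at 14 members, against a median of 0.833 RPM over all members. Zp3, which encodes an egg coat protein, had H3K27me3 of 55.3, 55.4 and 0.892 RPM in the +/+ libraries and 74.4, 0.611 and 0.736 RPM in the Δ/D329A libraries. Its input was 13.9, 13.0 and 0.837 RPM in +/+ and 20.3, 1.05 and 1.06 RPM in Δ/D329A. Input, H3K27me3, H3K4me3 and H3K36me3 were thus all high under the same 3 library numbers, +/+ replicates 1 and 2 and Δ/D329A replicate 1, and the neighbouring gene Srcrb4d showed the same split (input 17.98, 17.8 and 0.858 against 28.0, 1.05 and 1.18 RPM). In the other 3 H3K27me3 libraries neither promoter reached 3 RPM of H3K27me3. The promoter of Zp3 also drives the Cre transgene of this cross. Reads from a transgene copy and from the gene itself cannot be told apart, and whether these animals carried the transgene was not tested. The libraries with these 3 numbers had the lowest mitochondrial coverage in H3K27me3 (4.07 to 10.3 RPM against 18.1 to 36.8 RPM) and H3K4me3 (14.8 to 19.2 RPM against 29.5 to 44.6 RPM), so the libraries form 2 sets, each with both genotypes. Coil, Gm20528 and Heatr7b1 had an input between 4.80 and 7.91 RPM in all 6 libraries.

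Members were nearly silent in +/+ hypothalamus. Their median expression was 0.0151 RPKM, which scales reads to exon length and library depth, in +/+ and 0.0292 RPKM in Δ/D329A, compared with 0.491 RPKM for bivalent and 3.31 RPKM for H3K4me3-only genes in +/+. No read fell on 126 members in any library, 181 had a read in every library, and 32 (4.48%) reached 1 RPKM in +/+, against 31.2% of bivalent and 77.7% of H3K4me3-only genes. In bulk tissue, fewer cells of a type and less RNA per cell cannot be told apart.

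The 3 members with the highest mean RPKM in +/+ encode neuropeptides or their precursor, which are made by scattered hypothalamic neurons. Sst, which encodes the neuropeptide somatostatin, stood at 57.8 ± 15.7 RPKM (SD, n = 5) in +/+ and 55.4 ± 10.1 RPKM (SD, n = 4) in Δ/D329A, and the groups overlapped (exact permutation test of log2 RPKM, two-sided p = 0.857). Trh, encoding thyrotropin-releasing hormone, had 20.5 ± 4.68 and 25.6 ± 6.03 RPKM (exact permutation p = 0.175). Its promoter carried 6.45 RPM of H3K27me3 in +/+ and 6.04 RPM in Δ/D329A. Pomc, the precursor of ACTH and melanocortins, had 34.7, 11.9, 10.3, 11.1 and 9.60 RPKM in +/+ and 10.6, 2.83, 8.82 and 6.69 RPKM in Δ/D329A (exact permutation p = 0.0397). The +/+ mean of Pomc rests on 1 library, and 1 Δ/D329A library lay inside the +/+ range. Grb10, an imprinted growth inhibitor, had 14.5 ± 3.03 and 13.0 ± 1.15 RPKM (exact permutation p = 0.421). Agxt2l1 had 8.66 ± 1.77 and 11.4 ± 1.18 RPKM (exact permutation p = 0.0635), and Pdgfra, a receptor that marks oligodendrocyte precursors, 7.62 ± 1.50 and 5.15 ± 0.630 RPKM (exact permutation p = 0.0317). None of the 6 passed limma over all genes, with adjusted p values from 0.355 to 0.982, and edgeR and DESeq2 on recovered reads called Pdgfra lower while DESeq2 called Agxt2l1 higher.

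Expression in Δ/D329A was called higher at 4 members and lower at 0, by limma at an adjusted p under 0.01. Of all 17839 genes tested, 15 (0.0841%) were called higher and 4 (0.0224%) lower, while 4 of the 244 members that passed the expression limit were called higher (1.64%). All 4 reached the limit through Δ/D329A alone, so this share and the limma p values of these 4 below are descriptions. At an unadjusted p under 0.05, 24 members were higher and 19 lower (9.84% and 7.79%, against 4.61% and 3.02% of all genes tested). The limit, 0.1 RPKM in at least 4 of 9 libraries, was passed by 5 members through Δ/D329A alone and by 2 through +/+ alone. Genes without reads are set to 0.9 reads in the deposited values, so that short genes passed without a read. This held for 35 of the 244 members (49 had under 9 reads) and for 1724 of the 17839 genes. For a gene without a read, the log2 difference reflects library depth alone. The genes behind the shares at an unadjusted p include these and members that passed through 1 genotype alone. Those shares are therefore descriptions too. On recovered reads, edgeR called 5 of 129 members higher and 1 lower, beside 0.288% and 0.267% of genes, and DESeq2 12 of 308 higher and 4 lower, beside 0.804% and 0.712%. The 4 members called by limma were Wt1, Pou4f1, Hoxa6 and Hoxa4, all transcription factors that were at or near 0 reads in +/+.

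Wt1, a zinc finger factor of kidney and gonad development, had 0, 0, 0, 2 and 0 reads in the +/+ libraries and 61, 32, 37 and 48 reads in the Δ/D329A libraries. Its expression was 0.00416 ± 0.00931 RPKM (SD, n = 5) and 0.577 ± 0.125 RPKM (SD, n = 4), so that the groups lay far apart. The log2 difference was 5.72 ± 0.29 (SE; limma adjusted p = 8.11e-06), and the ratio of read rates was 143 with a counting interval of 39.1 to 1192. H3K27me3 at the Wt1 promoter was 6.40 ± 0.590 RPM in +/+ and 6.24 ± 0.798 RPM in Δ/D329A, and the groups overlapped. H3K4me3 stayed under 1 RPM in all 6 libraries. Input at this promoter was 0.476, 0.487 and 0.670 RPM in +/+ and 0.877, 0.868 and 0.968 RPM in Δ/D329A, without overlap. H3K36me3 was 0.0656, 0.142 and 0.105 RPM in +/+ and 0.170, 0.172 and 0.499 RPM in Δ/D329A, and over the 35 kb domain around Wt1 mean H3K27me3 was 6.16 RPM in +/+ and 4.90 RPM in Δ/D329A.

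Pou4f1, which specifies sensory and habenula neurons, had 0, 1, 0, 2 and 5 reads in +/+ and 58, 27, 55 and 51 in Δ/D329A. This gave 0.0244 ± 0.0307 and 0.948 ± 0.217 RPKM and a log2 difference of 5.28 ± 0.47 (SE; limma adjusted p = 0.000607). Its CpG-dense promoter, printed above, had H3K27me3 of 6.17, 5.40 and 6.47 RPM in +/+ and 2.22, 4.47 and 2.13 RPM in Δ/D329A. H3K4me3 there was 2.15, 1.93 and 1.94 RPM in +/+ and 8.22, 6.71 and 11.6 RPM in Δ/D329A. Every Δ/D329A library thus lay beyond the +/+ range in expression and in both marks, and by its Δ/D329A means the promoter fell in the H3K4me3-only class. H3K36me3 overlapped between the groups (0.139 and 0.152 RPM). The summed level of 7 thalamic and habenula markers ranged from 14.1 to 25.2 RPKM in +/+ and from 17.3 to 36.6 RPKM in Δ/D329A, with Rora higher without overlap and Chrnb4 lower. Their part in the Pou4f1 result was not tested.

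Silent members of the HoxA cluster also had reads in Δ/D329A. Hoxa6 had 0 reads in all 5 +/+ libraries and 5, 3, 5 and 4 in Δ/D329A (limma adjusted p = 4.43e-05), which is at least 9.12-fold higher against a floor of 3 reads over the +/+ group. Hoxa4 had 0 reads in +/+ and 5, 3, 4 and 2 in Δ/D329A (limma adjusted p = 0.000861, at least 7.51-fold higher). Both genes stood at the floor of 0.9 reads in every +/+ library, so their +/+ spread in limma reflects library depth alone. DESeq2 gave adjusted p values of 0.00825 for Hoxa6 and 0.0277 for Hoxa4 on recovered reads. Hoxa5 had 0 in +/+ and 3, 2, 11 and 5 in Δ/D329A, at least 11.3-fold higher. It was not called by limma (adjusted p = 0.0233) and was called by DESeq2 (adjusted p = 0.00473). Over the 9 Hoxa members, reads summed to 7 in +/+ and 76 in Δ/D329A, where the Δ/D329A libraries together were 0.622 times as deep on genes. The models of Hoxa4, Hoxa5 and Hoxa6 overlap those of Hoxa3 and Gm20653 on the same strand and that of 2700086A05Rik on the other, and the reads are uncertain between them. The study describes a strand-specific kit, and whether reads were counted by strand is not given in the sources used here.

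The other Hox clusters differed in how far they shared this pattern. Reads over members summed to 3 in +/+ and 50 in Δ/D329A for Hoxd, to 8 and 11 for Hoxb and to 7 and 13 for Hoxc. Hoxd8 had 0, 1, 0, 0 and 0 reads in +/+ and 9, 1, 18 and 12 in Δ/D329A (ratio of read rates 64.4, counting interval 10.9 to 2605). It was called higher by DESeq2, and an antisense gene overlaps it. H3K27me3 at Hox members had a median of 6.83 RPM in +/+ and 5.80 RPM in Δ/D329A. It was lower without overlap at 8 of 9 Hoxa, 6 of 10 Hoxb, 6 of 9 Hoxc and 3 of 8 Hoxd members. The share was 7.46% of all promoters and 20.9% of all members. H3K4me3 was higher without overlap at 5 Hoxa members, 1 Hoxc and 1 Hoxd member and no Hoxb member. Here the share was 1.87% of all promoters and 6.58% of all members. Members were chosen on the +/+ levels of these 2 marks, which touches both sets of counts. At Hoxa4, H3K4me3 was 1.87, 1.80 and 2.20 RPM in +/+ and 4.92, 5.09 and 5.55 RPM in Δ/D329A, next to a mean H3K27me3 of 6.61 RPM in +/+ and 4.12 RPM in Δ/D329A. Reads were thus higher in HoxA and HoxD, 5 of the 7 Hox members with higher H3K4me3 were in HoxA, and members with lower H3K27me3 were found in all 4 clusters. The difference between clusters was not tested.

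Counted without a model, members differed in both directions. Among genes with 20 reads or more over the 9 libraries, 13 of 254 members (5.12%) had every Δ/D329A library above every +/+ library, against 1.54% of 15806 genes. The reverse held for 7 members (2.76%), against 1.41%. Some of these members reached 20 reads through 1 genotype alone, such as Hoxa5 (0 reads in +/+ and 21 in Δ/D329A) and Kremen2 (55 and 0). These shares are therefore descriptions. Leaving out +/+ replicate 1 gave 20 higher (against 5.22% of genes), and leaving out +/+ replicate 5, Δ/D329A replicate 1 or Δ/D329A replicate 3 gave 13 lower each (against 4.45%, 2.28% and 2.38%). Besides Wt1, Pou4f1, Hoxa5 and Hoxd8, the 13 included Tal1, Slc6a5, Sfmbt2, Col27a1, St14, Insrr, Zfp385c and Igf2as. Tal1, a basic helix-loop-helix factor of blood and of some midbrain and hindbrain neurons, had 34, 12, 14, 4 and 5 reads in +/+ and 103, 58, 92 and 71 in Δ/D329A. Its log2 difference was 3.31 ± 0.52 (SE; limma adjusted p = 0.0355, and 3.84e-18 to 0.152 over the alternatives), and it was called by DESeq2 and edgeR, after median centring, with a pseudocount of 1 RPKM and without +/+ replicate 1. H3K27me3 at Tal1 was 6.89, 7.36 and 7.54 RPM in +/+ and 5.28, 5.67 and 5.46 RPM in Δ/D329A, while H3K4me3 stayed at 1.27 and 1.24 RPM. The summed erythroid markers were 13.4 to 42.3 RPKM in +/+ and 34.3 to 45.9 RPKM in Δ/D329A, overlapping between the groups. Their part in the Tal1 result was not tested. Slc6a5, the glycine transporter of inhibitory neurons in hindbrain and spinal cord, had 4, 1, 2, 2 and 1 reads in +/+ and 38, 11, 9 and 14 in Δ/D329A. It was called higher by DESeq2. Its promoter marks overlapped between the groups (H3K27me3 5.60 and 4.86 RPM, H3K4me3 0.185 and 0.162 RPM).

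Among the 7 members lower without overlap, Crabp1, which binds retinoic acid in the cytoplasm, had the highest expression. It stood at 8.95, 2.95, 3.63, 1.77 and 2.44 RPKM in +/+ and 1.19, 0.474, 0.751 and 1.12 RPKM in Δ/D329A (log2 difference -2.01 ± 0.44, SE; limma adjusted p = 0.183; called by DESeq2). Its H3K27me3 was 5.88 RPM in +/+ and 5.92 RPM in Δ/D329A. Kremen2, a Wnt co-receptor regulator, had 28, 3, 11, 5 and 8 reads in +/+ and 0 in every Δ/D329A library, at least 11.4-fold lower (limma adjusted p = 0.0758; called by DESeq2). Zar1, an oocyte gene, had 17, 4, 6, 2 and 3 reads in +/+ and 0, 1, 0 and 0 in Δ/D329A (limma adjusted p = 0.250). Chrnb4, a nicotinic receptor subunit of the habenula, had 27 reads in +/+ and 2 in Δ/D329A, and Neurod2, a factor of cortical neurons, 45 and 6. Dsp and Tchh, both genes of epithelia, were the other two. The +/+ replicate 1 library was the highest for Crabp1, Kremen2, Zar1 and Pomc alike. H3K4me3 at the Crabp1 promoter was 1.93, 1.40 and 1.18 RPM in +/+ and 0.690, 0.828 and 0.645 RPM in Δ/D329A, without overlap.

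**Figure D3:**
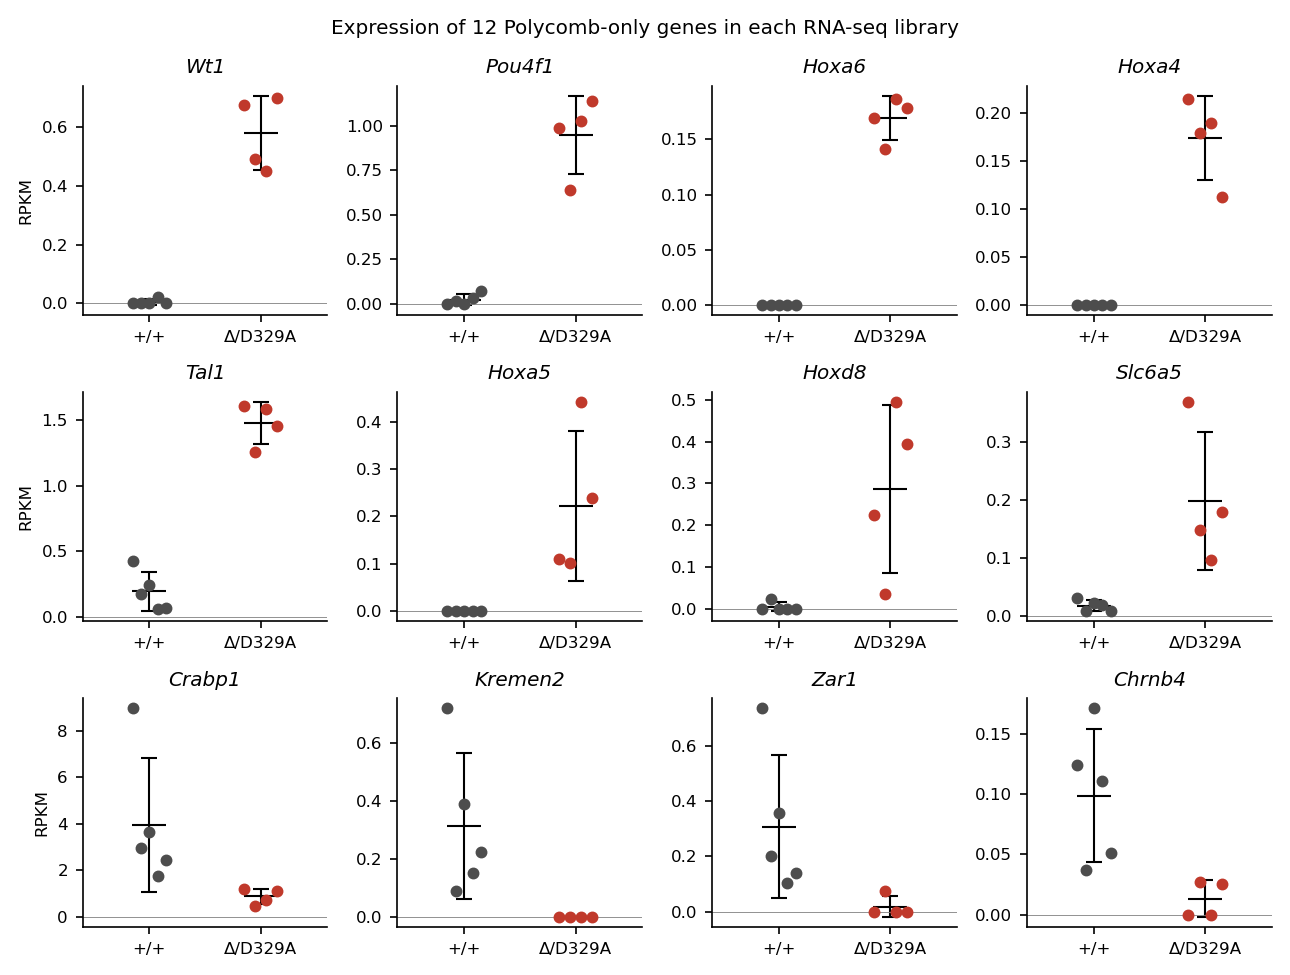
RPKM in each of 5 +/+ and 4 Δ/D329A RNA-seq libraries for 12 Polycomb-only genes, on a linear axis of its own for each gene, with points for libraries and bars for the mean ± SD of a group. The upper 8 genes lie at or near 0 in +/+, except Tal1 at 0.0589 to 0.422 RPKM, and the lower 4 are higher in +/+, most of all in replicate 1 for Crabp1, Kremen2 and Zar1.

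Across all members, H3K27me3 had a median of 4.78 RPM in +/+ and 4.52 RPM in Δ/D329A. It was lower without overlap at 149 members (20.9%) and higher at 15 (2.10%), beside 7.46% and 6.42% of all promoters, a contrast that the choice of members on +/+ levels touches. Within either set of libraries it was lower too, with medians of 4.66 and 4.44 RPM and of 5.02 and 4.57 RPM. By Δ/D329A means, 642 members (89.9%) still met both limits, 28 had become bivalent, 42 had neither mark and 2, Pou4f1 and 9130024F11Rik, H3K4me3 alone. Defined on Δ/D329A libraries in the same way, the class held 864 promoters, 122 of which were bivalent in +/+.

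Leaving out predicted genes and those with clone names (Gm and Rik symbols), the members furthest below +/+ without overlap on the log2 scale were Sfmbt2, Pou4f1, Cyp27b1, Rbmxl2 and Hoxa4. Sfmbt2, an imprinted gene that encodes a Polycomb group protein, had H3K27me3 of 5.88, 6.15 and 5.999 RPM in +/+ and 1.85, 3.90 and 2.79 RPM in Δ/D329A. Its H3K4me3 was 0.349 and 0.168 RPM. Its input was 0.684 RPM in +/+ and 0.928 RPM in Δ/D329A, higher without overlap. Its expression was higher in every Δ/D329A library, at 1.14 ± 0.171 and 1.84 ± 0.196 RPKM (limma adjusted p = 0.234; called by edgeR and DESeq2). Rbmxl2 had 4.49 and 2.65 RPM, without a read in any library. Furthest above +/+ were Hpse, Mos, Il27ra, Slc10a4 and Cxcl2. Mos, an oocyte kinase, had H3K27me3 of 3.55 RPM in +/+ and 5.15 RPM in Δ/D329A and H3K4me3 of 2.66 and 0.811 RPM, and Cxcl2, a chemokine, 3.88 and 4.88 RPM and 2.47 and 0.747 RPM. Neither gene had more than 1 read in all.

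Of 14 listed transcription factors that the hypothalamus itself uses, 3 were members and 10 were bivalent. Rax, which forms the eye and hypothalamus, had H3K27me3 of 6.44 RPM in +/+ and 6.58 RPM in Δ/D329A, and the groups overlapped. Six6, a related developmental factor, had 6.43 and 5.16 RPM without overlap. Fezf1, a zinc finger factor of the ventromedial nucleus, had 6.11 and 4.96 RPM without overlap, and its H3K4me3 was 0.822, 0.931 and 6.24 RPM in +/+ and 6.40, 5.68 and 9.33 RPM in Δ/D329A. The +/+ mean of H3K4me3 at Fezf1 thus rested on replicate 3, and the groups overlapped. In RNA-seq the 3 genes had 104, 391 and 434 reads in +/+ and 50, 182 and 305 reads in Δ/D329A. The Δ/D329A libraries together were 0.622 times as deep on genes. Mean expression in +/+ and Δ/D329A was 0.775 and 0.616 RPKM for Rax and 0.903 and 0.672 RPKM for Six6. Fezf1 had 2.31 RPKM in +/+ and 2.67 RPKM in Δ/D329A. Expression of all 3 genes overlapped between the groups.

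H3K4me3 at members had a median of 0.851 RPM in +/+ and 0.656 RPM in Δ/D329A. It was higher without overlap at 47 members (6.58%) and lower at 135 (18.9%), beside 1.87% and 4.28% of all promoters. The H3K4me3 library of Δ/D329A replicate 1 stood apart from the rest, with a median of 14.3 RPM at H3K4me3-only promoters against 18.1 to 21.2 RPM. With Gm and Rik symbols again left out, the members furthest above +/+ without overlap were Pou4f1, Hoxa3, Gata6, Skor1 and Vax2os2. Gata6, an endoderm and heart factor, had 2.78, 1.93 and 1.22 RPM in +/+ and 6.40, 8.52 and 7.75 RPM in Δ/D329A, while its H3K27me3 was 6.24 and 6.12 RPM. It had 0 reads in +/+ and 4, 1, 2 and 5 in Δ/D329A, at least 6.44-fold higher. Skor1, a transcriptional corepressor of the nervous system, had H3K4me3 of 1.36, 0.931 and 1.68 RPM in +/+ and 3.29, 5.995 and 6.20 RPM in Δ/D329A, with H3K27me3 of 5.49 and 4.25 RPM. Lower H3K27me3 together with higher H3K4me3, both without overlap, was found at 26 members (3.64%), beside 0.245% of all promoters. Among them were 7 Hox genes (Hoxa3, Hoxa4, Hoxa5, Hoxa6, Hoxa13, Hoxc6 and Hoxd8). Both marks were lower without overlap at 17 other members (2.38%), beside 0.172% of all promoters. The choice of members on +/+ levels touches both counts.

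**Figure D4:**
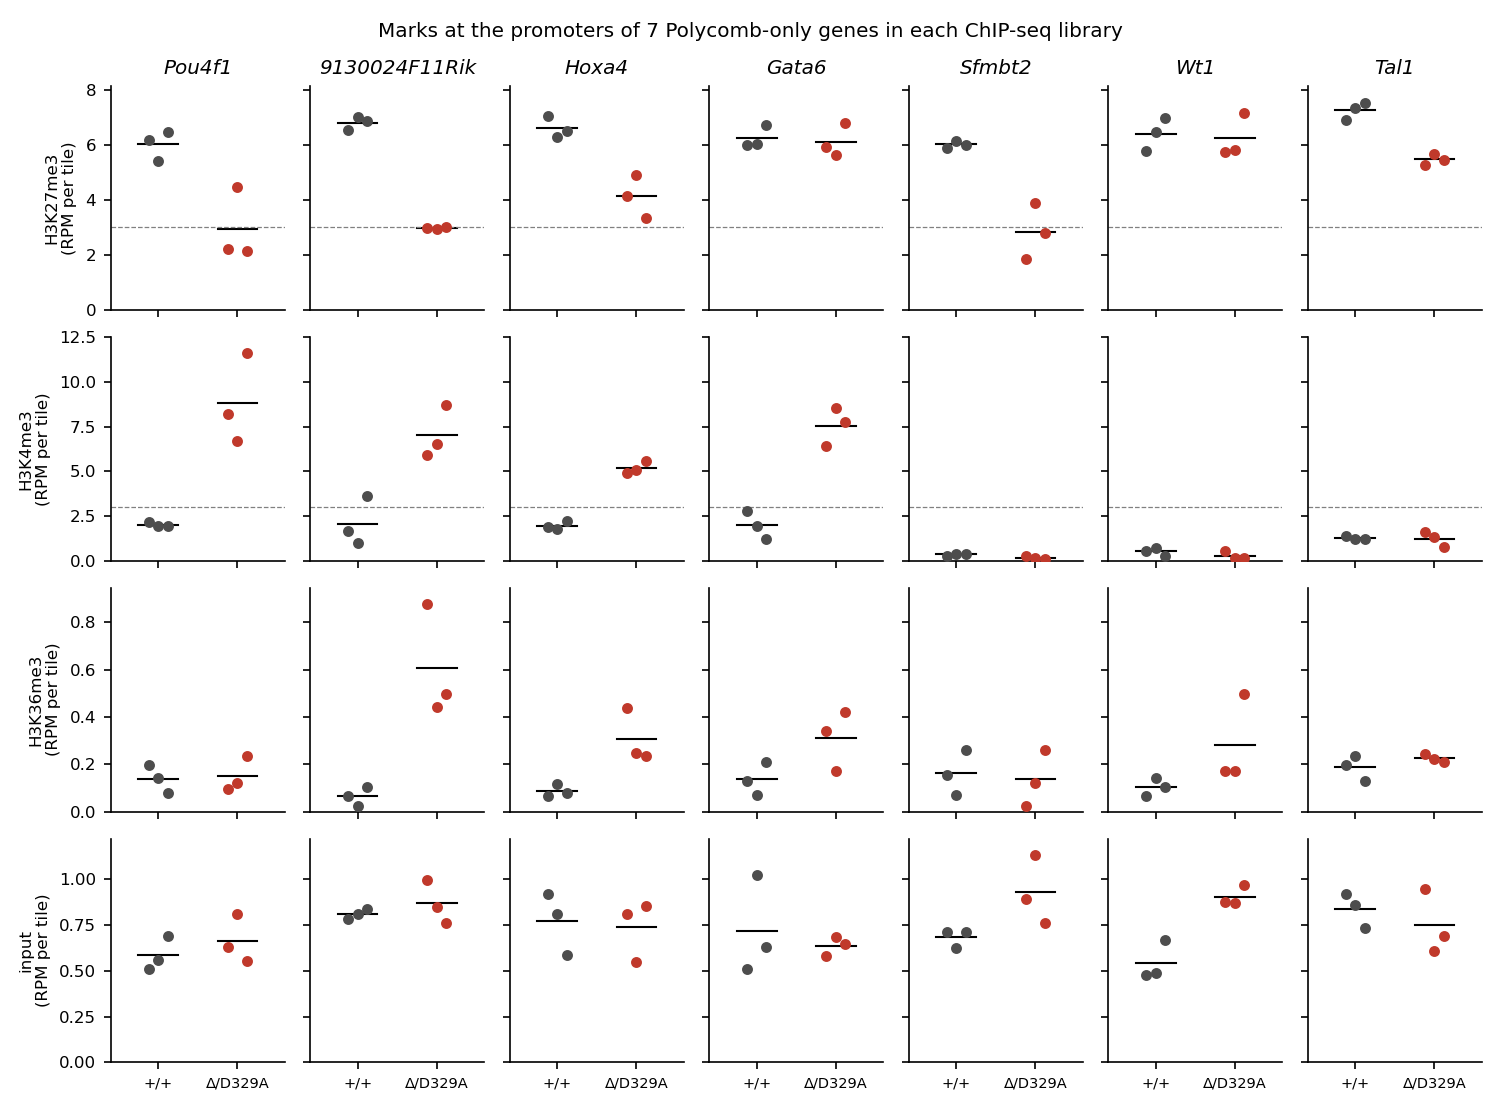
H3K27me3, H3K4me3, H3K36me3 and input at the promoters of 7 members in each of 3 +/+ and 3 Δ/D329A libraries, in RPM per tile, with points for libraries, short bars for group means and the limits of 3 RPM dashed. Pou4f1, 9130024F11Rik and Hoxa4 are lower in H3K27me3 and higher in H3K4me3, Gata6 is higher in H3K4me3 and overlaps in H3K27me3, Sfmbt2 and Tal1 are lower in H3K27me3 and not higher in H3K4me3, and Wt1 overlaps in both.

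H3K36me3, which took no part in the choice of members, was low at these promoters in both genotypes and higher in Δ/D329A. Its medians over members lay under those of input (input medians 0.833 RPM in +/+ and 0.896 RPM in Δ/D329A). Its median over members was 0.197, 0.213 and 0.236 RPM in the +/+ libraries and 0.316, 0.270 and 0.315 RPM in the Δ/D329A libraries, so that the groups did not overlap. These levels rest on a median of 4.5 reads per tile in each +/+ library and 5.5 to 6.5 in Δ/D329A. The median log2 difference of all autosomal promoters was 0.11, and that of members was 0.32. With TMM factors, which rescale the libraries, the medians were -0.00 and 0.20. TMM factors shift all promoters by about the same amount. Bivalent promoters had 0.37 and 0.26. The Δ/D329A replicate 3 library stood apart, with a median of 0.289 RPM at H3K4me3-only promoters against 0.190 to 0.221 RPM in the other 5 libraries.

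At single promoters, H3K36me3 was higher without overlap at 188 of 714 members (26.3%), against 9.24% of all promoters, and lower at 9 (1.26%), against 2.68%. The share of bivalent promoters was 23.04%. Without Δ/D329A replicate 3, H3K36me3 was higher without overlap at 230 members (32.2%), against 13.5% of all promoters. By limma, 0 members were called at an adjusted p under 0.05, beside 1 of 24483 promoters (0.00408%), while 150 members were higher and 2 lower at an unadjusted p under 0.05, beside 5.37% and 1.22% of all promoters. On recovered reads edgeR tested 104 of the members and called 0, as it did among all 5943 promoters tested. The mean was higher in Δ/D329A at 566 members (79.3%) in the set with high signal at Zp3 and at 503 (70.4%) in the other, against 54.1% and 59.6% of all promoters. Input was higher without overlap at 79 members (11.1%, against 6.36% of all promoters) and lower at 12 (1.68%, against 3.74%), with 0 members called by limma, beside 0.0204% of all promoters, and without the 79 H3K36me3 was higher at 173 of 635 members (27.2%). Of the 188 members, 47 (25%) also had lower H3K27me3, against 20.9% of all members, and 37 (19.7%) had no read in any RNA-seq library, against 17.6%. Among Hox members, 17 of 36 were higher in H3K36me3, with medians of 0.125 and 0.282 RPM.

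When promoters with low H3K36me3 were left out, limma called single members. Among the 11253 promoters with a mean of at least 0.3 RPM, 6 (0.0533%) were called higher, and 4 of the 276 members tested were among them: 9130024F11Rik, Hoxb3, Pax6os1 and Tbx15, named after their values had been seen. All 4 had +/+ means under that limit (0.0647 to 0.257 RPM) and passed it through Δ/D329A, so that this count is a description. Over the 4350 domains of H3K27me3, 1 (0.023%) was called, and it was the 8 kb domain of 9130024F11Rik (log2 difference 1.71 ± 0.21, SE; limma adjusted p = 0.0183). H3K36me3 over that domain was 0.188, 0.142 and 0.179 RPM in +/+ and 0.883, 0.674 and 0.787 RPM in Δ/D329A. At the promoter of 9130024F11Rik, H3K27me3 was 6.54, 7.00 and 6.87 RPM in +/+ and 2.99, 2.94 and 3.02 RPM in Δ/D329A, the 1 member that limma called lower in H3K27me3 at an adjusted p under 0.05, beside 0.00817% of all promoters, in a contrast that the choice of members touches. H3K4me3 there was 1.64, 0.964 and 3.61 RPM in +/+ and 5.93, 6.55 and 8.68 RPM in Δ/D329A. The gene itself had 9 reads in either genotype, where the Δ/D329A libraries together were 0.622 times as deep on genes. Input over the domain was 0.962, 0.867 and 0.831 RPM in +/+ and 1.03, 0.790 and 0.810 RPM in Δ/D329A, overlapping between the groups.

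Among these, Hoxb3 differed in H3K36me3 without RNA-seq reads. It had 0.109, 0.166 and 0.105 RPM in +/+ and 0.536, 0.541 and 0.708 RPM in Δ/D329A, with no read in any of the 9 libraries. Tbx15, a T-box factor of limb and skeleton, had 0.328, 0.284 and 0.157 RPM in +/+ and 1.07, 0.516 and 0.892 RPM in Δ/D329A, with 25 and 39 reads. Pax6os1, an antisense gene of Pax6, had 0.0656, 0.213 and 0.340 RPM in +/+ and 0.706, 0.492 and 0.866 RPM in Δ/D329A, with 4 and 2 reads. All 3 were apart from +/+ in every Δ/D329A library, while their H3K4me3 overlapped between the groups. Pax6os1 also had higher input without overlap, at 0.703 and 0.952 RPM.

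Over whole domains of H3K27me3, H3K36me3 was higher without overlap in 217 of the 577 domains with a member (37.6%) and in 640 of the 3773 without one (17.0%), beside 19.7% of all 4350. By CpG content, promoter H3K36me3 was higher without overlap at 36 of 174 members with a ratio under 0.3 (20.7%). The counts were 114 of 411 between 0.3 and 0.6 (27.7%) and 38 of 129 at 0.6 or more (29.5%), beside 9.24% of all promoters. Shares of all promoters by CpG content were not taken, so whether these differences are particular to members was not tested.

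**Figure D5:**
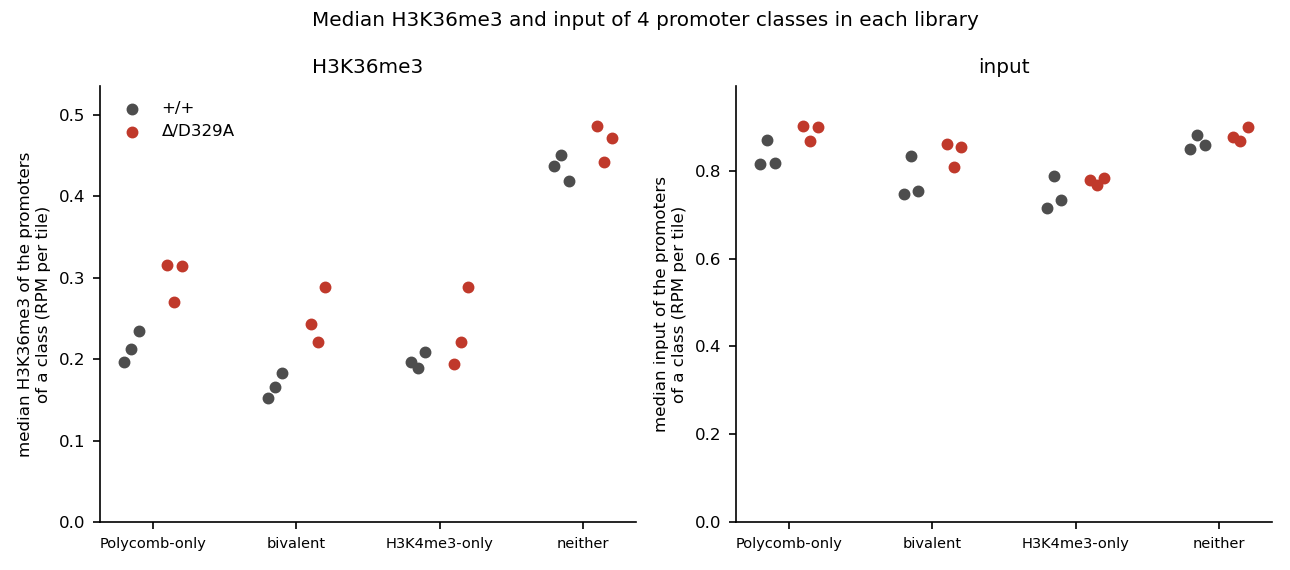
Median H3K36me3 (left) and input (right) over the promoters of 4 classes in each of 3 +/+ and 3 Δ/D329A libraries, in RPM per tile on axes from 0, with 1 point per library. The Polycomb-only and bivalent classes are higher in H3K36me3 in every Δ/D329A library, the other classes overlap, and input differs by less, from 0.816 to 0.869 RPM in +/+ and from 0.868 to 0.902 RPM in Δ/D329A at Polycomb-only promoters.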

How the data were processed

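Hypothalamus RNA-seq (9 libraries) and native ChIP-seq with MNase (24 libraries) of individual mice were used. Bisulfite libraries were not analysed here, and the authors left out a further Δ/D329A RNA-seq library. The submitters' processing notes name Trim Galore 0.4.3, HISAT2 2.0.5 and Bowtie2 2.3.2 with GRCm38, while the published methods name other versions and Bowtie in place of Bowtie2 for ChIP-seq. The authors quantified in SeqMonk. The deposited RNA-seq values are log2 RPKM, with genes without reads set to 0.9 reads. The deposited ChIP-seq values are a signal in RPM (reads scaled to library depth) per 2000 bp tile, each read falling in 2 tiles, with no subtraction of input. Whole reads were recovered for 99.99% of genes (within 0.02 reads), and +/+ libraries held 5491833 to 9721895 reads on genes, Δ/D329A libraries 3834484 to 6519054. Uniquely mapped reads ranged from 14874942 to 26178088 (H3K27me3), 12676361 to 15944966 (H3K4me3), 19056381 to 22850001 (H3K36me3) and 14708936 to 30207875 (input).

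Expression was tested with limma 3.58.1 (R 4.3.3) on log2 RPKM as deposited, over genes that reached 0.1 RPKM in 4 or more libraries. Calls needed p under 0.01 after Benjamini-Hochberg adjustment, or under 0.05 for the marks, which were fitted on log2(RPM + 0.1) over all autosomal promoters. Fold differences of low genes are understated on these scales. edgeR 4.0.16 and DESeq2 1.42.0 were run on recovered reads. Single genes had a two-sided exact permutation test, which cannot go below 0.00794 for 5 against 4, while 3 against 3 cannot go below 0.1. Groups without overlap have every library of one genotype above every library of the other. Counting intervals are 95% and, like the floor of 3 reads, cover counting error only. Replicate numbers did not pair the samples, as given under the dependence on processing. The limma fits, and the edgeR and DESeq2 fits of expression, were tested on simulated data. Changes were added to well covered genes and to promoters above the median level of a mark. Changes in genes with few reads and small changes of marks were not simulated, nor were the other steps. Genes were named by a rule: the called members, the largest differences without overlap, the highest levels of expression, H3K27me3 and H3K36me3, those nearest the limits, the highest H3K27me3 of each gene list and the genes the study names. Other names, 9130024F11Rik, Hoxb3, Pax6os1, Tbx15, Sfmbt2 in expression and the members listed by their 2 marks among them, were chosen after their values were seen. Some genes that the rule names are not reported here. The members and gene lists were chosen with earlier results of these data known.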

Additional observations from a re-analysis of the deposited data

Results flagged for a closer look

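Of 38 groups of libraries tested among the named genes, 5 held a library far from the others, where chance flags about 1 group in 20. Crabp1 stood at 8.95 RPKM in +/+ replicate 1 against 1.77 to 3.63 RPKM in the other +/+ libraries, and Pomc at 34.7 RPKM in the same library against 9.60 to 11.9 RPKM. In the other groups a few reads stood against none. Wt1 had 0.0208 RPKM (2 reads) in +/+ replicate 4, Hoxd8 had 0.0233 RPKM (1 read) in +/+ replicate 2 and Zar1 had 0.0755 RPKM (1 read) in Δ/D329A replicate 2, with 0 in all other libraries of the group.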

How the results depend on the processing

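The number of Polycomb-only promoters was 1342 with an H3K27me3 limit of 2 RPM and between 486 and 826 under the other limits, the shifted window, input subtraction and an input of at most 2 RPM, and 701 to 737 without 1 +/+ replicate. Of these, input subtraction kept 502 of the 714. Members called in expression numbered 16 by DESeq2 and 1 with an expression limit of 0.5 RPKM, where fewer genes are tested, 6 by edgeR and 4 to 5 without 1 replicate. Members without overlap in expression numbered 13 to 20 higher and 7 to 13 lower without 1 replicate. For H3K36me3, 0 members became 4 with a mean of at least 0.3 RPM and 1 over whole domains, and stayed 0 without 1 replicate. The count higher without overlap was 131 with TMM factors (5.48% of all promoters) and 230 to 278 without 1 replicate, where smaller groups overlap less. For H3K27me3 the 1 call became 20 with edgeR and 13 with a mean of at least 0.3 RPM, all lower (1.51% of all promoters tested were called in either fit), and 0 with the window of 1000 bp on both sides, the mitochondrial set as a block or without any 1 replicate. For H3K4me3 the count of 0 became 11 of 388 with edgeR (8 higher and 3 lower, beside 0.501% of all promoters tested) and 65 of 541 with a mean of at least 0.3 RPM (23 higher and 42 lower, beside 1.56%). Input had 0 calls throughout. Apart from the construction named, the cause was not tested. Deviations of same-numbered libraries correlated between -0.159 and 0.165, so the numbers do not pair the samples. With the replicate number as a block, 4 members were called in expression and 0 in H3K27me3, H3K4me3, H3K36me3 and input. Of the single genes, Pou4f1 was called under all 18 alternatives, Wt1 under the 17 and Hoxa6 under the 16 that tested them. Hoxa4 was called under 15 of 16, DESeq2 being the exception. Hoxa6 and Hoxa4 were not tested by edgeR, and Wt1, Hoxa6 and Hoxa4 not with the expression limit of 0.5 RPKM. None reversed where tested. TMM factors, single replicates left out of the counts without overlap, whole domains, the blocks by the Zp3 signal and the removal of members by input were chosen after seeing the data. The H3K36me3 levels rest on a median of 4.5 to 6.5 reads per tile, which limits their precision at single promoters.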
